A study of Mus musculus with 6 samples.

Results

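Osteopontin, CD44 and the integrin chains through which T cells bind osteopontin, other matrix proteins and neighbouring cells were examined in activated mouse CD8+ T cells given the ruminant trans fat trans-vaccenic acid (TVA). The 10 genes were taken by symbol (Spp1, Cd44, Itgav, Itgb3, Itgb5, Itgb1, Itga4, Itgb7, Itgal and Itgb2), and all 10 were found among the 24589 gene symbols of the deposited table. They were put together with earlier results of this comparison in view. Spp1 was chosen by its difference between TVA and DMSO, which was already known to be among the largest increases, so that difference is described here with no test. For the 9 receptor genes, p-values come from one fit over all genes tested and are not independent evidence, because the list was drawn up with the same comparison known.

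Primary CD8+ T cells of wild-type mice were activated with antibodies to CD3 and CD28 and then kept for 24 h in 20 µM TVA (3 libraries) or in the solvent DMSO alone (3 libraries). The study's primary T cells were of the C57BL/6 strain. The labels number the libraries 1 to 3 in each group but do not say whether they came from separate animals or cultures, so the p-values measure the spread between these libraries, which may be technical. Values are TPM, transcript abundances scaled to one fixed total per library, which adjust for transcript length and can be compared between genes. Sequencing depth is unknown, and TPM keeps no trace of it.

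Osteopontin, the product of Spp1, is a secreted phosphoprotein made by activated T cells, macrophages and bone cells, and acts both as a matrix protein and as a cytokine. It binds αv integrins through an arginine-glycine-aspartate motif, α4 integrins through a neighbouring site, and CD44. Integrins are pairs of an α and a β chain, so that the transcript of a chain says which pairs a cell could make and not which pairs stand on its surface. In T cells the αL chain (Itgal) with β2 (Itgb2) forms LFA-1, which holds the cell to ICAM-1 on its target, and α4 (Itga4) pairs with β1 (Itgb1) to bind VCAM-1 and fibronectin or with β7 (Itgb7) to bind MAdCAM-1 in gut vessels.

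Spp1 lies at chr5:104435118-104441050 on the plus strand (GRCm38, the build also known as mm10, GENCODE vM21). The 250 bases before its upstream RefSeq start, chr5:104434861-104435110, overlap no annotated exon and are printed here because Spp1 had the largest difference of the group. Capitals mark a match to the RUNX motif TGTGGT, which lies on the minus strand at -128 to -123 from the start.
Spp1 promoter: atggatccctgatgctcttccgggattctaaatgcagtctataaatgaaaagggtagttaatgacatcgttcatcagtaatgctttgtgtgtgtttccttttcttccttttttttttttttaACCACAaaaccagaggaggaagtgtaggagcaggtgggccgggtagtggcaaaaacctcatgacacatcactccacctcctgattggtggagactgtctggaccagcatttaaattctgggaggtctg

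The window was searched on both strands for 6 short motifs, and the RUNX motif was the one found, a motif that 14% of 32851 RefSeq promoter windows of the same length hold. The letters of the AP-1 motif TGANTCA, the CRE half-site TGACG, the T-box motif GGTGTGA, the nuclear receptor half-site AGGTCA and the E-box CACGTG were not in this window. They are in 6.75%, 17.8%, 3.33%, 14% and 6.02% of all windows, respectively. These are matches of letters and not binding sites.

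Spp1 was at 5.76, 6.43 and 5.45 TPM in DMSO replicates 1, 2 and 3 and at 13.5, 13.9 and 16.6 TPM in the TVA replicates of the same numbers. Every TVA library lay above every DMSO library, and the ratio of the group means was 2.499. On the log2(TPM + 1) scale, which understates the change of low genes, the fitted difference was 1.19, which ranked 7 from the highest of the 10866 genes tested. It stayed between 1.10 and 1.30 over 14 alternative fits. DMSO replicate 2, which correlated more closely with the TVA libraries (r 0.996 over genes) than with DMSO replicates 1 (0.993) and 3 (0.995), held the highest Spp1 value of its group, and without it the difference was 1.24.

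Spp1 is also a gene of macrophages, and markers of these cells were measured beside it. In bulk RNA, fewer cells of a type and less RNA per cell cannot be told apart. Among all genes tested, 5.28% passed as higher and 3.23% as lower. Of 12 macrophage and monocyte markers, 4 were tested and 1 rose (Lyz2, lysozyme) while none fell. Their summed level ran from 39.06 to 43.3 TPM under DMSO and from 52.9 to 54.8 TPM under TVA, most of it Lyz2 at 28.9 to 31.0 and 38.01 to 41.3 TPM, and none of the 12 was at 0 in every library. Csf1r, the receptor of the macrophage growth factor, was at 0.64 to 0.82 TPM under DMSO and 1.00 to 1.28 TPM under TVA, and Fcgr1, a high-affinity antibody receptor, at 0.13 to 0.16 and 0.44 to 0.56 TPM. Over the whole list, 7 of the 12 were higher in every TVA library than in every DMSO library and none was lower in this sense. Of the 4 tested, Lyz2, Csf1r and Cd14 were among the 7 and Cd68 was not. The groups did not overlap in either direction for 38.6% of all genes tested, a share that leaves out untested genes. The 8 that were not tested were at 0.89 TPM or lower in every library. Summed neutrophil markers ran from 10.3 to 14.9 and from 17.02 to 19.9 TPM, with 2 of 3 tested higher, beside 5.28% of all genes tested. Both lists moved with Spp1, and their part in its difference was not tested.

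**Figure D1:**
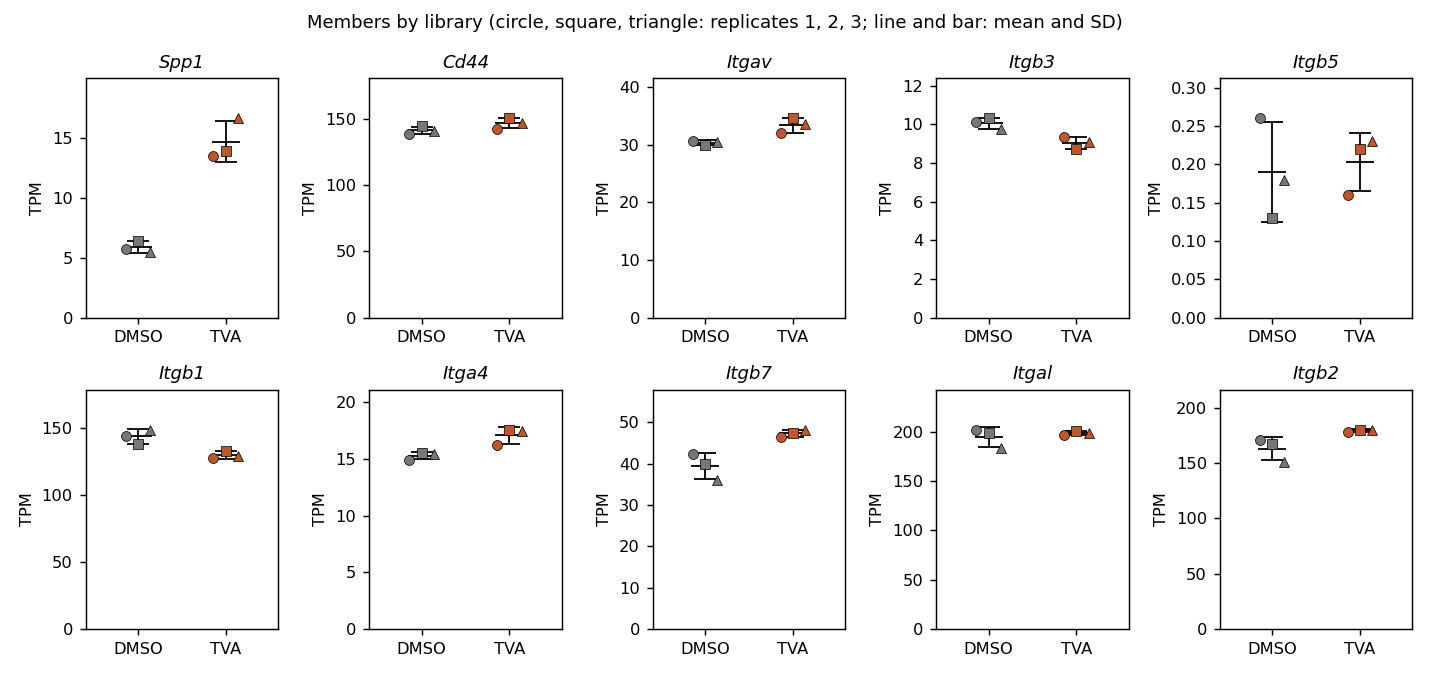
TPM of the 10 genes in each library, with DMSO in grey and TVA in orange, the replicates as circle, square and triangle, and the group mean with its SD as a line and bar. Spp1 is at 5.45 to 6.43 TPM under DMSO and 13.5 to 16.6 TPM under TVA, whereas the other panels differ by a small part of their level.

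The receptor genes differed far less. Of the 9, Itgb5 did not reach the filter of at least 1 TPM in at least 3 libraries, and 8 were tested. In limma, 1 of the 8 passed an adjusted p of 0.05 (Itgb7, higher) and none passed as lower, or 12.5% in all, beside 8.51% of all genes tested, of which 5.28% passed as higher and 3.23% as lower. The groups did not overlap for 6 of the 8, beside 38.6% of all genes tested. The median log2 difference of the 8 was 0.09, beside 0.04 for all genes. The share that passed is near the background, and the count was 0 to 2 over the alternatives. Without DMSO replicate 2 it was 2, with Itgb1 as the second gene, and without DMSO replicate 3 or any one TVA library it was 0. The share of all genes tested that passed was 8.7%, 20.6% and 2.71% without DMSO replicates 1, 2 and 3, and 1.15%, 0.939% and 1.04% without the TVA replicates of the same numbers.

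The level of each chain was ordered in a similar way in both groups. With DMSO, Itgal had the highest mean (195 ± 10.1 TPM, SD, n = 3), followed by Itgb2 (163 ± 10.8), Itgb1 (144 ± 5.41) and Cd44 (141 ± 2.85), each at a percentile of 90.3 or higher by mean level among the genes tested. Itgb7 (39.4 ± 3.21), Itgav (30.4 ± 0.373), Itga4 (15.3 ± 0.313), Itgb3 (10.06 ± 0.288) and Spp1 (5.88 ± 0.501) followed, and Itgb5 was lowest at 0.19 ± 0.0656 TPM. Itgb1 and Cd44 overlapped with DMSO, whereas with TVA every Cd44 value (143 to 150.4 TPM) exceeded every Itgb1 value (127 to 133 TPM). With TVA, Spp1 stood above Itgb3 in every library and overlapped Itga4.

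Cd44, the hyaluronan receptor that is raised on activated and memory T cells and also binds osteopontin, gave 139, 144 and 141 TPM in the DMSO libraries and 143, 150.4 and 147 TPM in the TVA libraries, here and below in the order of replicates 1, 2 and 3. The groups overlapped. The log2 difference was 0.05 (95% interval -0.03 to 0.14, limma adjusted p 0.34), and the adjusted p ran from 0.24 to 0.81 over the alternatives. The table has one value per gene, so the splice variants of Cd44 were not seen. The ratio of Cd44 to Spp1 transcripts, which no scaling of a library changes, was 22.4 to 25.8 under DMSO and 8.84 to 10.8 with TVA.

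Among the αv chains that bind the arginine-glycine-aspartate motif of osteopontin, Itgav had 30.7, 29.98 and 30.6 TPM under DMSO and 32.04, 34.6 and 33.6 TPM under TVA. Itgb3, the β3 partner of αv and of the platelet chain αIIb, had 10.1, 10.3 and 9.75 TPM under DMSO and 9.34, 8.73 and 9.11 TPM under TVA. The libraries of the groups did not overlap for either gene, with TVA above for Itgav and below for Itgb3. Neither passed the threshold, with log2 differences of 0.13 (95% interval 0.03 to 0.23, limma adjusted p 0.088) and -0.14 (-0.25 to -0.02, 0.11). Itgav passed under 0 of 14 alternatives and Itgb3 under 0 of 13. The ratio of Itgav to Itgb3 was 2.90 to 3.13 under DMSO and 3.43 to 3.97 with TVA.

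Itgb5, another β partner of αv that is typical of macrophages and stromal cells, was at 0.26, 0.13 and 0.18 TPM under DMSO and 0.16, 0.22 and 0.23 TPM under TVA. The groups overlapped, and no fold is given at this level.

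The α4 pairs showed the one call among the receptors. Itgb7, the β chain of the gut-homing pair α4β7 and of αEβ7, had 42.4, 39.8 and 36.1 TPM under DMSO and 46.5, 47.4 and 48.2 TPM under TVA. All TVA libraries lay above the DMSO libraries, which themselves spread by more than the TVA libraries did. Itgb7 rose by 0.26 on the log2 scale (SE 0.060, 95% interval 0.12 to 0.40, limma adjusted p 0.042). It passed under 7 of 14 alternatives, with adjusted p from 0.0060 to 0.16. Leaving out DMSO replicate 3 (0.071) or a TVA library (0.11 to 0.16) was among the alternatives that ended the call, as were fits of all genes above 0 TPM (0.075) and without the variance trend (0.054).

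Itga4, the α4 chain, had 14.9, 15.5 and 15.4 TPM under DMSO and 16.2, 17.6 and 17.5 TPM under TVA, with no overlap. Its log2 difference of 0.15 (95% interval 0.04 to 0.26) did not pass (limma adjusted p 0.086, 0.085 to 0.28 over the alternatives). Itgb1, the β chain shared by the largest number of integrin pairs, had 144, 138 and 149 TPM under DMSO and 127, 133 and 129 TPM under TVA, again with no overlap and with TVA below. Its log2 difference was -0.15 (95% interval -0.24 to -0.05, limma adjusted p 0.062), and it passed under 4 of 14 alternatives, namely without DMSO replicate 2 (0.023), with quantile normalization (0.047), with median-of-ratios scaling (0.045) and with a correction for GC content (0.014).

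The GC content of transcripts bears on these values, because the log2 difference between the groups had a Spearman correlation of -0.401 with GC content over genes, and the difference between DMSO replicates 1 and 3 one of 0.617. Itgb7 transcripts have a GC content of 56.9% and those of Itgb1 of 45.0%. With the GC dependence subtracted in each library, the log2 differences were 0.32 for Itgb7 and -0.21 for Itgb1, both larger in size than without the correction. Those of Spp1 (1.12), Itga4 (0.09), Itgav (0.09) and Cd44 (0.01) were smaller than without it (1.19, 0.15, 0.13 and 0.05). Itgb3, Itgb2 and Itgal were at -0.15, 0.14 and 0.03, near their values without it.

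**Figure D2:**
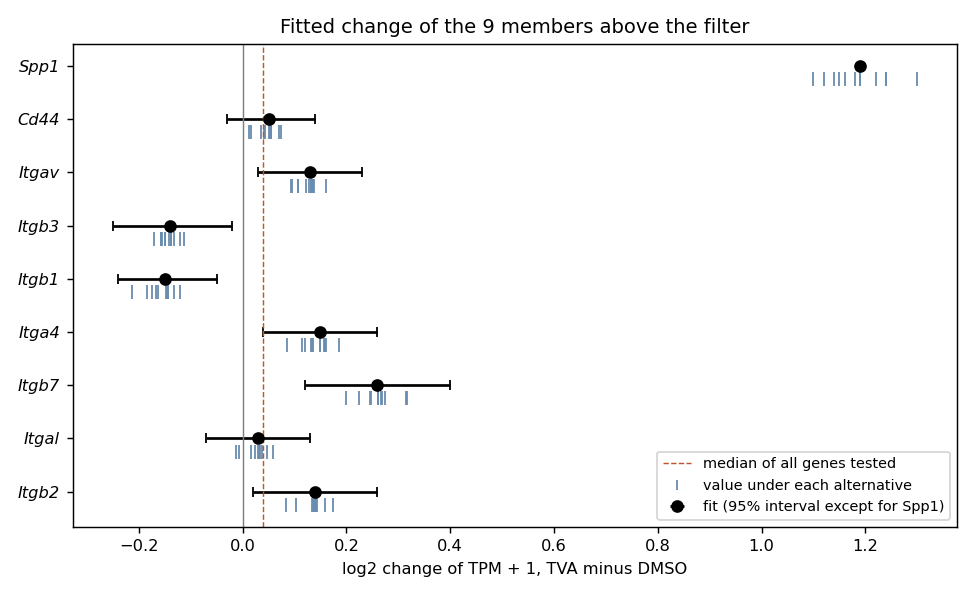
Log2 difference of TPM + 1 between TVA and DMSO for the 9 genes above the filter, as a black dot, with its 95% interval for the 8 receptors, with a blue tick for each alternative fit and a dashed line at the median of all genes (0.04). Spp1 stands at 1.19, Itgb7 at 0.26 and Itgb1 at -0.15, and the intervals of Cd44 and Itgal span 0.

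Itgal and Itgb2 encode the chains of LFA-1, the main integrin of the contact between a killer T cell and its target. Itgal had 202, 199 and 183 TPM under DMSO and 197, 201 and 199 TPM under TVA, and the groups overlapped. Its log2 difference was 0.03 (95% interval -0.07 to 0.13, limma adjusted p 0.66), and was -0.01 without DMSO replicate 3 and after median-of-ratios scaling. Itgb2 had 171, 168 and 151 TPM under DMSO and 178, 180.4 and 180.2 TPM under TVA, without overlap. Its log2 difference of 0.14 (0.02 to 0.26) did not pass (limma adjusted p 0.11, 0.051 to 0.29 over the alternatives). The ratio of Itgal to Itgb2 was 1.18, 1.19 and 1.21 in the DMSO libraries and 1.105, 1.11 and 1.105 in the TVA libraries.

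Set against each other within a library, the β chains gave a balance that does not depend on how libraries are scaled. The 5 β chains summed to 346 to 369 TPM under DMSO and 362 to 370 TPM under TVA, with overlap, and made up at least 99.94% of all β chain transcripts. Itgb2 held 45.7% ± 1.82 of the sum under DMSO and 49.1% ± 0.255 with TVA (SD, n = 3). Itgb1 held 40.3% ± 2.35 and 35.5% ± 0.434. Itgb7 held 11.04% ± 0.559 and 12.9% ± 0.185, and Itgb3 held 2.82% ± 0.0782 and 2.48% ± 0.110. None of these 4 shares overlapped between the groups. The share of Itgb1 was 38.8% to 43.04% in the DMSO libraries and 35.2% to 35.95% in the TVA libraries.

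The ratio of Itgb7 to Itgb1, the alternative partners of α4, was 0.294, 0.288 and 0.242 in the DMSO libraries and 0.365, 0.356 and 0.374 in the TVA libraries. The ratio of Itga4 to Itgb1 was 0.103 to 0.112 under DMSO and 0.127 to 0.135 with TVA, whereas that of Itga4 to Itgb7 overlapped between the groups (0.352 to 0.428 and 0.349 to 0.372). These ratios are a description of genes chosen with their differences known and were not tested.

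**Figure D3:**
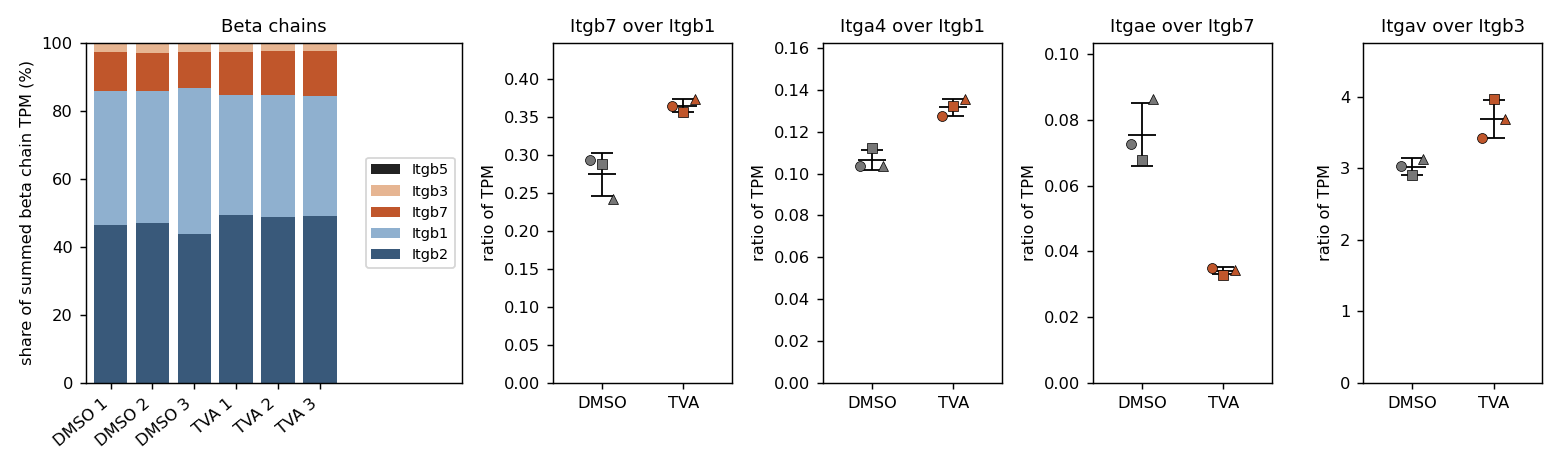
Left, the share of each of the 5 β chains in their summed TPM, by library. Right, 4 ratios of TPM by group, with replicates as circle, square and triangle and the mean with its SD. The ratio of Itgb7 to Itgb1 is 0.242 to 0.294 under DMSO and 0.356 to 0.374 with TVA, and the ratio of Itgae to Itgb7 is 0.0678 to 0.0863 under DMSO and 0.0329 to 0.0351 with TVA.

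Other genes of osteopontin, CD44 and integrin biology were counted in 8 lists of 91 genes, which were also written with earlier results known. Of the 54 tested, 2 rose and 4 fell, or 11.1% beside 8.51% of all genes tested, and their median log2 difference was -0.03. Without DMSO replicate 2 the count was 13 (2 higher, 11 lower), where 20.6% of all genes tested passed and 9.38% passed as lower. Without DMSO replicate 3 the count was 2, beside 2.71% of all genes, and without any one TVA library it was 1, beside 0.939% to 1.15%.

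Among the 15 other α chains, 7 were tested and 3 fell, and none rose, or 42.9% beside 8.51% of all genes tested, of which 3.23% passed as lower. Itgae, which encodes the αE chain that pairs with β7 and binds E-cadherin on epithelium, had 3.08, 2.70 and 3.11 TPM under DMSO and 1.63, 1.56 and 1.65 TPM under TVA. It fell by 0.60 on the log2 scale (SE 0.072, limma adjusted p 0.0062) and passed under each of 13 alternatives (0.0023 to 0.045). Its ratio to Itgb7 was 0.0726, 0.0678 and 0.0863 in the DMSO libraries and 0.0351, 0.0329 and 0.0342 in the TVA libraries. Itgb7, the β chain of both pairs, passed as higher here and under 7 of 14 alternatives, while Itgae passed as lower. The other partner, Itga4, was higher in every TVA library but did not pass, and its ratio to Itgb7 overlapped between the groups.

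Itga2b, the αIIb chain of platelets and mast cell precursors that pairs with β3, had 6.50, 6.26 and 5.54 TPM under DMSO and 3.81, 4.79 and 4.28 TPM under TVA. It fell by 0.43 (SE 0.087, limma adjusted p 0.031), and the call ended, among other fits, when DMSO replicate 3 (0.053) or a TVA library (0.071 to 0.12) was left out, and in the fit of every gene above 0 TPM (0.071). Platelet markers ran from 62.1 to 63.7 TPM in sum under DMSO and from 52.1 to 56.6 TPM under TVA, with 1 of 3 tested lower. Mast cell and basophil markers ran from 38.8 to 41.1 and from 34.7 to 34.9 TPM (1 of 5 tested lower, beside 3.23% of all genes tested). The most abundant were Pf4 (50.4 to 54.6 and 45.4 to 50.7 TPM) and Mcpt8 (19.75 to 21.3 and 17.97 to 18.95 TPM), and no marker of either list was at 0 in every library. By gene, 1 of the 3 platelet markers tested (Ppbp, but not Pf4) and 3 of the 5 mast cell and basophil markers were lower in every TVA library. None was higher in this sense, and the groups did not overlap for 38.6% of all genes tested. Itga2b and Itgb3, of which Itgb3 did not pass, were lower with TVA, as were the sums of these lists. The part of the lists in the values of Itga2b and Itgb3 was not tested. The third gene, Itga3, encodes the α3 chain, a laminin-binding partner of β1, and fell by 0.37 (SE 0.079, limma adjusted p 0.033). It had 4.65, 3.96 and 3.79 TPM under DMSO and 3.09, 2.94 and 2.83 TPM under TVA, and the call likewise ended, among other fits, when DMSO replicate 3 (0.057) or a TVA library (0.094 to 0.14) was left out, and in the fit of every gene above 0 TPM (0.070). Itga6, the most abundant of these chains, had 17.6 ± 0.450 and 16.4 ± 0.233 TPM (SD, n = 3) and did not pass (limma adjusted p 0.18). The 3 other β chains, Itgb4, Itgb6 and Itgb8, were below 0.2 TPM in every library and were not tested.

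In the machinery that switches integrins on, 23 of 28 genes were tested, 2 rose and 1 fell, or 13% beside 8.51% of all genes tested. Skap1, an adaptor that brings the small GTPase RAP1 to integrins after T cell receptor signals, had 36.3, 37.6 and 36.8 TPM under DMSO and 42.7, 42.1 and 43.5 TPM under TVA (log2 difference 0.21, SE 0.037, limma adjusted p 0.021). Stk4, the kinase MST1, which acts with RAP1 and its partner RAPL in LFA-1 activation, had 119, 123 and 119.7 TPM under DMSO and 135, 137 and 136 TPM under TVA (0.18, SE 0.034, 0.025). Rasgrp1, an exchange factor that activates RAS in T cells, had 43.9, 46.1 and 43.8 TPM under DMSO and 37.8, 39.7 and 38.8 TPM under TVA (-0.20, SE 0.041, 0.032). Among the alternatives, all 3 calls were lost without DMSO replicate 3 (0.057 to 0.061) and without any TVA library (0.086 to 0.14), and that of Stk4 also after median-of-ratios scaling (0.062). Rap1b, the most abundant gene of the list, had 471 ± 8.50 and 472 ± 5.04 TPM and did not differ beyond its spread (limma adjusted p 0.96).

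**Figure D4:**
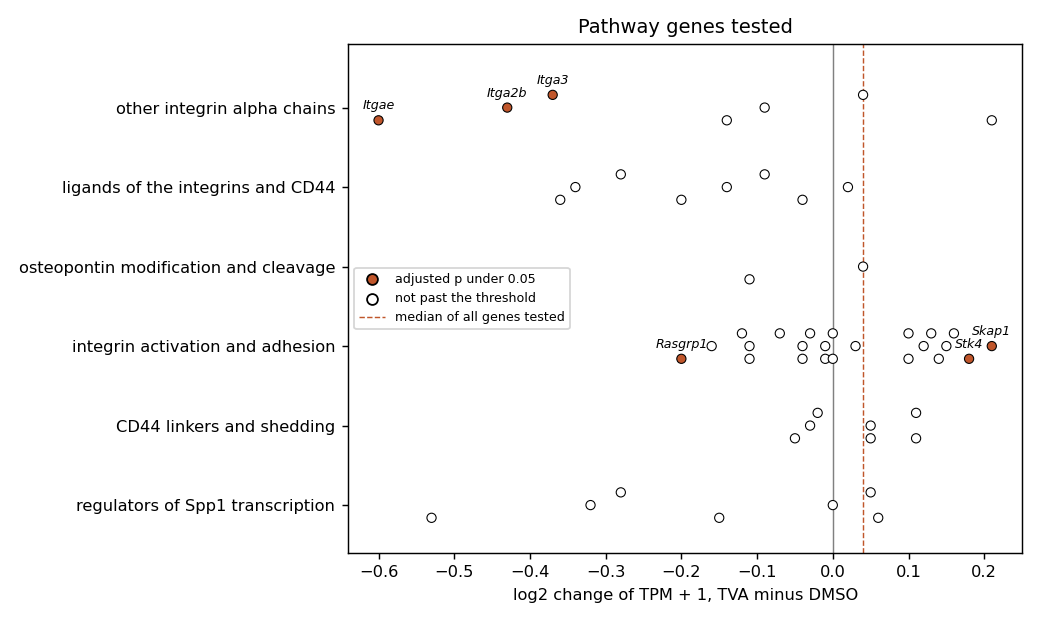
Log2 difference of TPM + 1 between TVA and DMSO for the 54 pathway genes tested, by list, with genes past an adjusted p of 0.05 filled and named and a dashed line at the median of all genes (0.04). The filled points are Itgae, Itga2b, Itga3 and Rasgrp1 below 0 and Skap1 and Stk4 above 0.

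No ligand of the integrins or CD44 passed in limma (0 of 8 tested, 4 at an unadjusted p under 0.05, all lower, and 0 without the variance trend). Over all 10866 genes tested, 3451 were at an unadjusted limma p under 0.05, 2335 of them higher. Srgn, the granule proteoglycan serglycin that binds CD44, was the most abundant at 1381 ± 89.7 TPM under DMSO and 1339 ± 30.8 TPM under TVA (limma adjusted p 0.60). Without DMSO replicate 2, 3 of the 8 passed as lower, namely Icam1 (0.048), Emilin1 (0.030) and Tgfb1 (0.0086), where 9.38% of all genes tested passed as lower. They are named after their values were seen. Icam1 passed under 5 of 14 alternatives in all, Emilin1 under 3 of 13 and Tgfb1 under 1 of 14. Tgfb1 gave 129, 79.3 and 101 TPM in the DMSO libraries and 80.5, 79.9 and 76.1 TPM in the TVA libraries, so that DMSO replicate 2 lay among the TVA values.

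Genes that modify or cut osteopontin were mostly too low to test. Of 7, Tgm2 and Ctsd were tested and neither passed (0 at an unadjusted p under 0.05, and 0 without the variance trend), with Ctsd, the protease cathepsin D, at 244 ± 12.4 and 251 ± 6.37 TPM. Fam20c, the kinase that phosphorylates secreted proteins such as osteopontin, had 0.59, 0.54 and 0.68 TPM under DMSO and 0.98, 0.86 and 0.70 TPM under TVA and did not reach the filter. The 4 bone and tooth relatives of osteopontin in the same family, Ibsp, Dmp1, Dspp and Mepe, were listed at 0 in all libraries. Of the 7 tested genes that link CD44 to the cytoskeleton or shed it, 0 passed (1 at an unadjusted p under 0.05, higher, and 0 without the variance trend), and moesin (Msn), the most abundant, had 375 ± 10.5 and 389 ± 6.60 TPM. For comparison, 3451 of all 10866 genes tested were at an unadjusted limma p under 0.05, 2335 of them higher.

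Among 8 transcription factor genes tied to Spp1 transcription in T cells or bone, 7 were tested and 0 passed in limma (3 at an unadjusted p under 0.05, all lower, and 0 without the variance trend). Beside these, 3451 of all 10866 genes tested were at an unadjusted limma p under 0.05, 2335 of them higher. Ets1, the most abundant, had 111 ± 3.32 and 115 ± 2.22 TPM (limma adjusted p 0.40). Without DMSO replicate 2, Jun (0.00091), Tbx21 (0.018), Runx3 (0.020) and Runx2 (0.027) passed, or 4 of the 7, all as lower, where 9.38% of all genes tested passed as lower. These too are named after their values were seen. Each of them passed under 1 alternative in all, of 14 for Jun, Tbx21 and Runx3 and of 13 for Runx2. Runx3, a RUNX factor of CD8+ T cells, had 36.1, 26.6 and 29.6 TPM under DMSO and 24.8, 26.2 and 23.9 TPM under TVA.

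The genes whose values followed Spp1 most closely over the 6 libraries were Tmem168, Crtam, Etfdh, Kif1b and Pla2g7, with Pearson r of log2(TPM + 1) from 0.994 to 0.996 among the 8934 genes that averaged 5 TPM or more. The 6 points fall into the 2 treatment groups and share their libraries, so r mostly reflects the group difference and is given with no p. Crtam, an adhesion receptor of activated CD8+ T cells, had 240.1, 240.02 and 231 TPM under DMSO and 297, 303 and 310.5 TPM under TVA. Etfdh, a mitochondrial enzyme of fatty acid oxidation, had 48.0, 49.97 and 48.4 and then 68.5, 67.9 and 70.4 TPM. Pla2g7, a secreted lipase known from macrophages, had 4.11, 4.28 and 4.11 and then 5.91, 5.66 and 6.45 TPM. Among the receptors, r with Spp1 ran from -0.92 (Itgb1) to 0.91 (Itga4 and Itgb7), with Cd44 at 0.74 and Itgal at 0.39.

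The labelled cell type was checked against its markers. Cd3d, Cd3e, Cd3g, Cd8a, Cd8b1 and Lck summed to 1842 to 1995 TPM under DMSO and 2094 to 2123 TPM under TVA, with 1 of 6 higher past the threshold. Of all genes tested, 5.28% passed as higher and 3.23% as lower. Under DMSO and then TVA, summed CD4 T cell markers ran from 15.1 to 16.2 and 12.2 to 14.2 TPM (1 of 3 tested lower). B cell markers ran from 11.2 to 14.9 and 10.7 to 10.9 TPM, and dendritic cell markers from 6.61 to 6.91 and 5.94 to 6.38 TPM. Stromal and endothelial markers ran from 16.5 to 17.8 and 18.3 to 19.1 TPM, and NK cell markers from 0.72 to 1.08 and 0.23 to 0.69 TPM. None of these sums overlapped between the groups. The B cell, dendritic cell, and stromal and endothelial lists each had 1 gene tested, which did not pass, and no NK cell marker was tested. Cd209a, Col3a1 and Cdh5 were listed at 0 in every library.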

How the data were processed

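RNA-seq libraries of 3 DMSO and 3 TVA samples were read from one table, in which the authors deposited TPM per gene symbol. The submitters' processing notes name STAR, RSEM and mm10, with no versions, and the annotation is not given in the sources used here. Columns were matched to libraries by the names in the sample descriptions. Genes with at least 1 TPM in at least 3 libraries (10866) were compared on log2(TPM + 1) with limma 3.58.1 in R 4.3.3, with a variance trend, in two-sided tests. Calls were made at 0.05 on p-values adjusted for all tested genes by Benjamini-Hochberg. Levels are mean ± SD. The members and gene lists were chosen with earlier results of these data known. Genes named were the members, the genes of each list past the threshold (at most 4) or most abundant, and the 5 most like Spp1. One marker (Trac) was not in the table. Positions are from GENCODE vM21 and the promoter from RefSeq (GRCm38.p6), in which 7 members had an entry. Each gene's GC content was taken as the median of its GENCODE transcripts, available for 99.5% of the genes tested, and its correction subtracted a loess curve (span 0.5) in each library. The other alternatives were a pseudocount of 0.1, no filter on low values, a mean of at least 10 TPM, 2 scalings, no variance trend, a replicate block and the omission of each library. The depth is unknown, so no counting interval is given. Figures were drawn with matplotlib 3.10.9.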

Additional observations from a re-analysis of the deposited data

How the results depend on the processing

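Over the whole table, 925 genes passed. The count was 494 with all genes above 0 TPM, 608 with a mean of at least 10 TPM, 102 to 2242 with a library left out and 218 with a replicate block. The receptor count of 1 was 0 without the variance trend, with the replicate block and with all genes above 0 TPM, 2 with quantile normalization, median-of-ratios scaling or GC correction, and 0 to 2 with a library left out. The count of 6 pathway genes was 3 with a mean of at least 10 TPM, 1 with the replicate block and 1 to 13 with a library left out. The deviations of libraries sharing a number correlated at 0.16, 0.03 and -0.08 between the groups, and 1 of the 3 DMSO libraries correlated best with the TVA library of its own number, so no pairing was assumed. With the block, adjusted p was 0.075 for Itgb7, 0.062 for Itga2b, 0.056 for Itga3, 0.062 for Skap1, 0.062 for Rasgrp1, 0.064 for Stk4 and 0.027 for Itgae. The cause of these shifts was not tested.

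Spp1 moved by less than its spread between replicates under each alternative. Of 276 values of the 20 other named genes under alternatives, 227 kept direction and side of the threshold, 35 lost the call, 4 gained it (all Itgb1) and 10 changed sign, all of genes near 0. Itgal was at -0.00666 after median-of-ratios scaling and -0.0122 without DMSO replicate 3 (up to 0.058 without another library), and Srgn at 0.00225 without DMSO replicate 3 (down to -0.0915). Rap1b was at -0.00279 with quantile normalization, -0.0348 after median-of-ratios scaling, -0.0718 after GC correction and from -0.00952 to 0.0164 with a library left out, and Msn at -0.0152 after GC correction. Depth is unknown, so what it limits cannot be stated.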
